A study of Mus musculus with 12 samples.

Results

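Mt1 and Mt2 encode metallothioneins 1 and 2, small cysteine-rich proteins that bind zinc and copper. They buffer these metals in the cytosol and take up reactive oxygen species. Both genes are expressed in most tissues and are induced together, by zinc through the transcription factor MTF1 at metal response elements in their promoters, and by glucocorticoids, fasting and oxidative stress. Mt3 and Mt4, their neighbours on chromosome 8, are best known from brain and from stratified epithelium.

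The 2 genes were examined by chimeric eCLIP in the tibialis anterior, a leg muscle, of wild-type (WT) and mir-486 KO mice, which lack a microRNA that is abundant in muscle and red blood cells. In this assay AGO2, the protein that holds microRNAs, is cross-linked to RNA and pulled down, and the reads pile up into peaks on the RNA it held. There were 2 library sets, here set 1 and set 2, and each had 1 WT and 1 mir-486 KO total AGO2 library with 1 size-matched input per library. A peak has 2 kinds of log2 fold, one of the AGO2 library over its own input and one of the WT over the KO AGO2 library.

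The labels give the WT mice as strain C57BL/6 with the wildtype genotype, and the KO mice as strain FVB N/J with the genotype miR-486-/-, all 6 months old. The knockout is a CRISPR deletion in the hairpin of the microRNA. The study's methods describe male mice and a shared C57BL/6J background, so labels and methods differ, and genotype and labelled strain cannot be told apart in either set. The methods count more muscles per genotype than there are libraries and describe the assay as done in duplicate. Whether the 2 sets are repeat runs of the same muscles, different mice or pooled muscle is not stated, and the SDs given over both sets may hold technical spread alone. The libraries further enriched for miR-486 were not analysed here.

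All listed peaks that overlap Mt1 or Mt2 on the same strand by at least 1 nt were taken, with no threshold. The 2 genes, of 17864 with a peak in any list, were selected on the measured WT over KO folds of set 1, so those folds are given as a description and without a test. The 8 lists held 58 such entries of 1426686. The WT library listed 5 peaks in Mt1 and 6 in Mt2 in set 1, and 4 and 5 in set 2. The KO library listed 3 in Mt1 and 1 in Mt2 in set 1, and 3 and 2 in set 2. On the opposite strand of the 2 genes, 0 peaks were listed. Mt4 had 0 peaks in any list.

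As a check of the genotype labels, Mir486 itself had 2 listed peaks in the WT library of set 1 and 4 in that of set 2, all enriched over input, and 0 in either KO library. All 10 markers of skeletal muscle fibres had listed WT peaks in both sets. No counts of reads were given, which leaves the depth of each library unknown. By the steps of the direct folds, KO was 1.12 times as deep as WT in set 1, and in set 2 it was 1.09 times as deep.

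The genes lie side by side on the plus strand of chromosome 8 (GRCm38, GENCODE M21). Mt2 spans chr8:94172664-94173568 and Mt1 spans chr8:94179082-94180327. Each has 3 exons, and the middle exon, of 66 nt, is wholly coding. The coding sequence is 186 nt in both, and 20 of its 62 codons, the stop included, are TGC or TGT, the cysteine codons, in each gene.

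The coding parts of exons 2 and 3 are shown because peaks covered nearly all of them in WT and because the genes are paralogs whose reads could be confused. Capitals mark the bases that differ between Mt1 and Mt2, and the sequences are from the GRCm38 reference, plus strand, at chr8:94179823-94179888 and chr8:94180102-94180193 for Mt1 and at chr8:94173127-94173192 and chr8:94173336-94173427 for Mt2.
Mt1 exon 2: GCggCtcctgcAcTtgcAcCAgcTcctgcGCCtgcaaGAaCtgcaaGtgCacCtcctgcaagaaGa
Mt2 exon 2: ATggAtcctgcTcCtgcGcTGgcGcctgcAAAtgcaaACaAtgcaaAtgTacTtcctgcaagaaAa
Mt1 exon 3 coding part: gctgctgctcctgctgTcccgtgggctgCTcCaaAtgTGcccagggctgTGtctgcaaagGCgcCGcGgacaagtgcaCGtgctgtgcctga
Mt2 exon 3 coding part: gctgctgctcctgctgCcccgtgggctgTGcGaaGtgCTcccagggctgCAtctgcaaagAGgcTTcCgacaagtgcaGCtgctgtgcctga

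Of 186 coding positions, 38 differed, which left 79.6% identical, with 19 differences in exon 2 and 16 in exon 3. The longest identical run between the 2 mRNAs was 20 nt. Between Mt1 and Mt3 it was 27 nt. A read longer than that cannot match both mRNAs without a mismatch. How reads with several placements were treated is not given in the sources used here.

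WT peaks covered most of both mRNAs in both sets, and KO peaks covered less of them, though nearly as much at Mt1 in set 2. In set 1 the WT peaks covered 362 of the 549 nt of the Mt1 mRNA and 348 of the 511 nt of the Mt2 mRNA, against 137 and 78 nt for the KO peaks. In set 2 the WT peaks covered 355 and 320 nt, against 345 and 193 nt for the KO peaks. Of the coding sequence, the WT peaks of set 1 covered 99.5% in Mt1 and all of it in Mt2. The peaks followed the exons: in each library at most 6 nt of Mt1 or Mt2 peaks lay outside them, and several peaks ended exactly at an exon boundary.

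In set 1 every listed Mt2 peak was far higher in WT than in KO. The exon 1 peak (chr8:94172795-94172875) had a log2 fold of 5.37, the 3 adjoining exon 2 peaks had 6.82, 5.93 and 5.55, and the 2 exon 3 peaks had 5.35 and 6.32. The median was 5.74, and the −log10 p beside these folds, the authors' own value for the reads of the 2 libraries, ran from 24.3 to 66.8. All 6 peaks passed both thresholds used here, which are 3 for the log2 fold and 3 for the −log10 p, where 0.469% of all WT peaks of set 1 did. That contrast chose the genes, so nothing is read from the difference of these shares.

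Mt1 had nearly the same folds, and all 5 of its peaks passed as well. Its exon 1 peaks had log2 folds of 4.39 and 4.98, its exon 2 peak 5.21 and its exon 3 peaks 5.44 and 5.54, with a median of 5.21 and −log10 p from 23.4 to 66.9. Its folds were higher with each peak toward the 3′ end, whereas those of Mt2 were highest in exon 2 and at the 3′ end. The lowest Mt2 fold of set 1, 5.35, lay within the range of the Mt1 folds.

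As reads before scaling to library depth, the WT library held 18.8 to 41.6 reads at the Mt1 peaks of set 1 for each KO read, and 36.6 to 101 at the Mt2 peaks. The ratio of 101 was at the first peak of Mt2 exon 2 (chr8:94173127-94173162), the first 36 nt of the exon shown above. It is not given in the sources used here whether 0 KO reads were counted as 1. If they were, the ratio of 101 may be a lower limit. The next highest ratio, 71.5, is not a whole number, so more than 1 KO read lay behind it.

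In set 2 all 9 WT peaks of the 2 genes were also higher in WT, but by much less, and 0 of them passed both thresholds, where 0.0192% of all WT peaks of that set did. The Mt1 peaks had log2 folds of 0.82, 1.03, 1.02 and 0.76 from the first to the last, with a median of 0.92. The Mt2 peaks had 1.71 and 1.77 in exon 1, 1.71 and 1.34 in exon 2 and 0.87 in exon 3, with a median of 1.71. The −log10 p of these 9 peaks ran from 2.08 to 4.88, and all 9 missed the log2 threshold, and 2 of the 9 passed with that threshold at 1. In reads before scaling, the WT library held 1.55 to 1.88 reads for each KO read at Mt1 and 1.68 to 3.13 at Mt2.

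**Figure D1:**
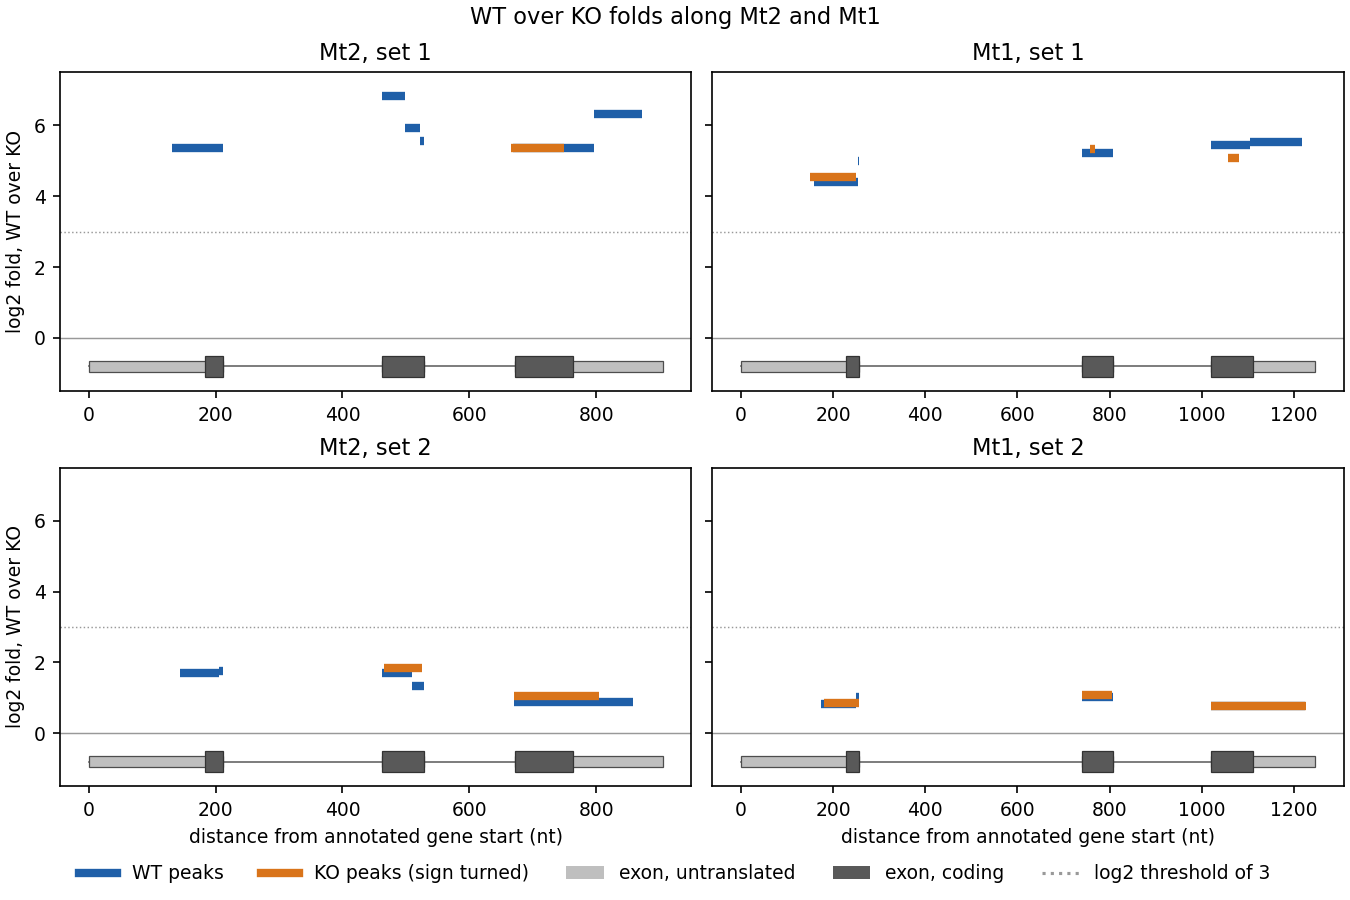
Log2 folds of the WT over the KO AGO2 library (y axis) along Mt2 and Mt1 (x axis, distance in nt from the annotated gene start), with WT peaks in blue, KO peaks with the sign turned in orange, exons in grey below and the log2 threshold of 3 dotted. In set 1 the WT peaks lie between 4.39 and 6.82, and in set 2 they lie between 0.76 and 1.77.

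The KO peaks, called in the other library, gave the same sizes from the opposite side. KO over WT, the KO peaks of set 1 had log2 folds of −4.55, −5.34 and −5.08 in Mt1 and −5.37 in Mt2. In set 2 they had −0.86, −1.08 and −0.78 in Mt1 and −1.85 and −1.05 in Mt2. These lists share their libraries with those of WT over KO and are no second measurement. No peak of either gene passed the thresholds in the direction KO over WT, where 0.179% of all KO peaks did in set 1 and 0.0144% in set 2.

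Over the 2 sets, the mean of the gene medians was 3.07 ± 3.04 for Mt1 and 3.72 ± 2.85 for Mt2 (log2 fold, SD, n = 2 sets). The spread between the sets was thus about as large as the mean, and set 1 decided its size. An exact two-sided permutation test of 2 libraries against 2 cannot go below a p of 0.333, and none was run.

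The folds of all genes depended on the library in which the peaks were called. The median of the gene medians, WT over KO at the WT peaks, was 0.90 over 12837 genes in set 1 and 0.35 over 15812 genes in set 2, while KO over WT at the KO peaks it was 0.55 and 0.24. Each list thus leaned to its own library over all genes, whereas Mt1 and Mt2 were higher in WT in both kinds of list. Among the 8446 genes with at least 3 WT peaks in set 1, Mt2 was at place 2 and Mt1 at place 3 from the top, after Arrdc2, an arrestin-domain gene, at 6.14. The gene after them, the calcium pump regulator Sln, had 4.20. Among 11573 such genes in set 2, Mt2 was at place 104 and Mt1 at place 1481.

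Over their own input, the Mt1 peaks of WT stood high in set 1 and those of KO did not. The WT peaks had log2 folds over input of 3.62, 2.48, 2.93, 2.89 and 3.36 in set 1, with a median of 2.93, and 0.92, 0.72, 1.04 and 1.90 in set 2, with a median of 0.98. The KO peaks had 0.97, −0.20 and −0.20 in set 1 and 0.60, 0.33 and 1.89 in set 2. Every WT value of set 1 was thus above every KO value, while in set 2 the ranges of the values crossed, and the highest value of each was at the exon 3 peak.

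For Mt2 the libraries were closer over input than in the direct comparison. The WT peaks had 1.56, 2.21, 2.32, 2.27, 2.61 and 2.86 in set 1 (median 2.29), and 3.23, 3.12, 1.76, 1.47 and 1.61 in set 2 (median 1.76). The KO peaks had 1.61 in set 1, within the WT range, and 0.62 and 1.51 in set 2. Over all genes the medians were 0.68 and 0.64 for WT in sets 1 and 2, and 0.38 and 0.56 for KO.

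Few of these peaks passed the thresholds over input. In set 1, 2 of the 11 WT peaks did, the first peak of Mt1 exon 1 and the last of Mt1 exon 3, where 3.57% of all WT peaks did. In set 2, 2 of the 9 WT peaks did, both in Mt2 exon 1, where 1.42% of all WT peaks did. Of the KO peaks, 0 of 4 passed in set 1 (0.848% of all KO peaks) and 0 of 5 in set 2 (1.23%). No WT peak passed at the same exon in both sets.

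**Figure D2:**
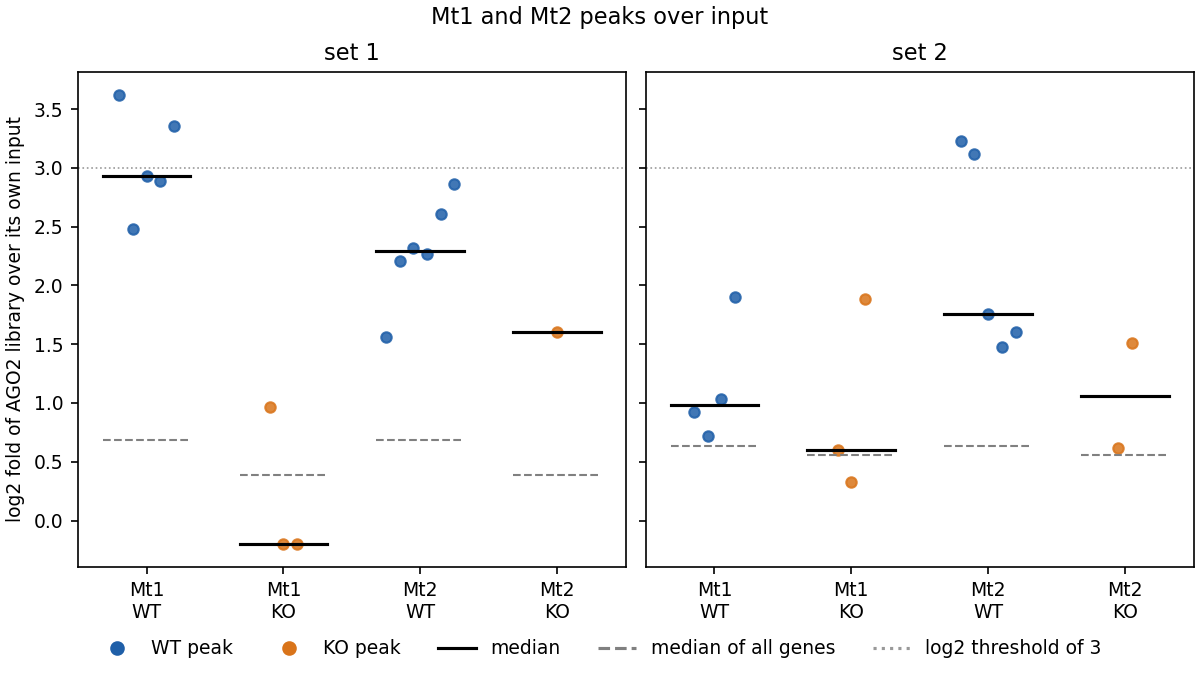
Log2 fold of each AGO2 library over its own input (y axis) at every listed Mt1 and Mt2 peak, ordered from the 5′ to the 3′ end, with WT peaks in blue, KO peaks in orange, a black line at their median and a dashed line at the median of all genes. In set 1 the Mt1 medians are 2.93 in WT and −0.20 in KO, and in set 2 they are 0.98 and 0.60.

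The inputs themselves can be compared roughly where a WT and a KO peak overlap. The direct fold less the WT fold over input plus the KO fold over input leaves WT input over KO input. That holds exactly only where both peaks span the same bases. The direct and WT folds were taken at the WT peak and the KO fold at the overlapping KO peak. At the Mt1 and Mt2 pairs their bounds differed, so the ratios are approximate. At the 3 such pairs of Mt1 in set 1 this input ratio was 1.74, 2.08 and 2.35 on the log2 scale, and the fold over input was higher in WT by 2.65, 3.13 and 3.09. At the 1 pair of Mt2, in exon 3, the input ratio was 4.35, and the fold over input was 2.61 in WT and 1.61 in KO. The authors' −log10 p beside these folds over input was 19.8 in WT and 0.35 in KO, so the KO fold rests on few reads. The median over 9110 genes was −0.28 for the input ratio, with the middle 95% of genes from −1.92 to 1.25, and Mt2 was at place 1 and Mt1 at place 29 from the top. These ratios are computed from the set 1 direct folds on which the genes were chosen, and for Mt2 from 1 pair of peaks, so they are a description only.

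By this approximation the inputs made up 4.35, the greater part, of the direct fold of 5.35 at this Mt2 pair, where the KO fold rests on few reads. At the 3 Mt1 pairs of set 1 the fold over input made up more than the inputs did. By the medians over the pairs, the larger of the 2 parts was the other one in set 2, for both genes. For Mt2 this compares unlike exons, since its set 1 pair lay in exon 3 and its set 2 pairs in exons 2 and 3. At the exon 3 pair of set 2 the direct fold was 0.87, the input ratio 0.77 and the difference over input 0.10. By the same approximation the inputs were thus again the greater part at Mt2 exon 3. The input ratios of set 2 at the 4 pairs of Mt1 were 0.50, 0.91, 0.30 and 0.75, and at the 3 pairs of Mt2 they were 0.56, 0.49 and 0.77, where the median over 13123 genes was −0.11. The Mt1 value of 0.91 came from peaks that shared 6 nt. In set 2 the Mt1 fold over input was higher in WT by a median of 0.22 and the Mt2 fold by 0.86. Over the sets the implied input ratio averaged 1.35 ± 1.03 for Mt1 and 2.46 ± 2.68 for Mt2 (log2, SD, n = 2 sets). In set 1 the KO peaks were short, 12 and 26 nt in Mt1 exons 2 and 3 against 67 and 84 nt in WT, and the number of reads behind their folds is unknown. In whole muscle, fewer cells that express a gene and less of its RNA per cell cannot be told apart.

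**Figure D3:**
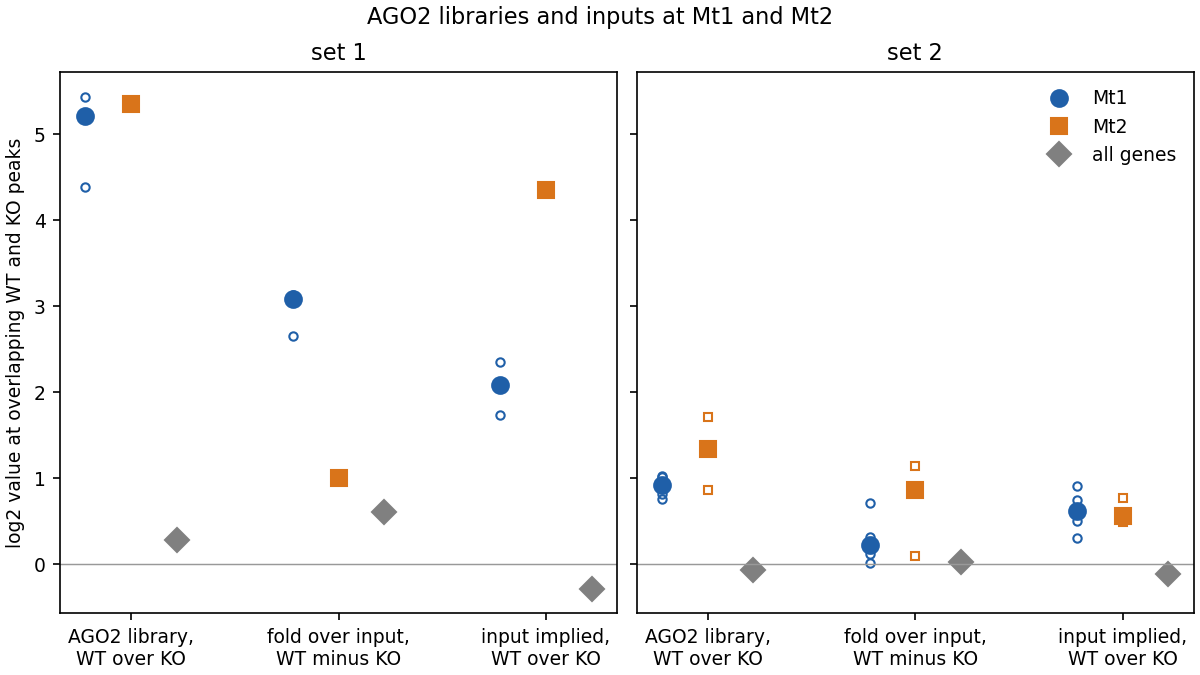
Log2 values at overlapping WT and KO peaks, for the AGO2 libraries (WT over KO), the fold over input (WT minus KO) and the inputs implied by them (WT over KO), with open marks for pairs of peaks, filled marks for the median of Mt1 (blue) and Mt2 (orange) and grey diamonds for the median of all genes. In set 1 the implied input ratio is 2.08 for Mt1 and 4.35 for Mt2, against −0.28 over all genes, and in set 2 it is 0.62 and 0.56, against −0.11.

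Mt3, on the same strand at chr8:94152607-94154146, had lower folds than both in set 1, and in set 2 it had higher folds than Mt1 and folds in the range of Mt2 or just above it. Its 2 WT peaks had WT over KO log2 folds of 2.25 and 0.16 in set 1, below every Mt1 and Mt2 peak, and the folds of its 5 peaks in set 2 ran from 1.29 to 1.88, with a median of 1.77. Of these 7 peaks, 0 passed the thresholds. Its input ratio at the 1 pair of set 1 was −1.92, and the median over its 5 pairs of set 2 was 1.69.

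The other genes of metal and redox handling had lower folds than Mt1 and Mt2 in set 1, and in set 2 their range took in both. Of a list of 44 genes, which holds zinc and copper carriers, copper chaperones, MTF1, Mt3, Mt4 and antioxidant enzymes, 40 had WT peaks in each set. Their median WT over KO log2 fold was 1.20 in set 1 and 0.20 in set 2, where all genes had 0.90 and 0.35, and the mean over the sets was 0.70 ± 0.70 (SD, n = 2 sets). At the KO peaks the WT over KO median of the list was −0.29 in set 1 and −0.14 in set 2. In set 1, 1 of 273 WT peaks of the list passed the thresholds (0.366%, near the 0.469% of all peaks), and in set 2, 1 of 522 did (0.192%, against 0.0192% of all peaks). These were a peak of Keap1, the cytosolic anchor that holds the antioxidant factor NRF2 in check, with 3.03 in set 1, and a peak of Slc30a1, the zinc exporter that MTF1 induces, with 3.03 in set 2. No peak of the list passed in the direction KO over WT.

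The highest gene medians of the list in set 1 were those of Ccs, the copper chaperone of superoxide dismutase, with 2.32, and of the copper carrier Slc31a2 and the zinc carrier Slc39a11, which tied at 2.16. The lowest were those of the zinc importers Slc39a6 and Slc39a9, with −0.52 and −0.10. In set 2 the highest were those of Hmox1, which degrades haem, with 1.79, and of Mt3, with 1.77, and the lowest were those of the zinc carrier Slc30a2, with −0.69, and of the quinone reductase Nqo1, with −0.57. Mtf1, the factor that senses zinc, had medians of 1.24 and 0.62. In set 1, 0 genes of the list had a median above that of Mt1, 5.21. In set 2, 5 genes were above the 0.92 of Mt1, and Hmox1 and Mt3 were also above the 1.71 of Mt2.

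Glucocorticoids and fasting induce metallothioneins in muscle and other tissues, and 16 genes of that response were set beside them. In set 1, 24 of 417 WT peaks of this list were past the thresholds, 5.76% against 0.469% of all peaks, and the median log2 fold over the 16 genes was 1.33. The list was chosen with earlier results of these data known, so nothing is read from the difference of these shares. The 24 peaks lay in 6 genes. These were Ddit4, an inhibitor of mTORC1, with 4 of 5 peaks and a median of 3.37, the forkhead factor Foxo1 with 9 of 56 and 2.31, the receptor chaperone Fkbp5 with 5 of 47 and 2.16, Zbtb16 with 3 of 127, Per1 of the clock with 2 of 21 and the kinase Sgk1 with 1 of 22. Fbxo32, a ubiquitin ligase of muscle atrophy, instead had 2 of its 49 KO peaks past the thresholds in the direction KO over WT, and they were the only ones of the 389 KO peaks of the list in set 1 (0.514%, against 0.179% of all KO peaks). In set 2, 0 of the 581 WT peaks of the list passed, and the median was −0.02, below the 0.35 of all genes. At the KO peaks the WT over KO median of the list was 0.49 in set 1 and −0.09 in set 2. The part of this response in the values of Mt1 and Mt2 was not tested.

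Marker lists of other cell types were read beside these values. All 5 red blood cell genes, 4 globin genes and the haem enzyme Alas2, lay above the all-gene median in both sets, with medians of 0.91 to 2.30 in set 1 and 1.14 to 1.76 in set 2. Hba-a1 and Hba-a2 are near-identical copies, so the split of reads between them is uncertain. Of 4 macrophage genes, 3 were listed in set 1 with 0.74 to 1.74, where Adgre1 had no WT peak, and 4 in set 2 with 1.03 to 1.91. The list medians of set 1 and set 2 were 0.68 and 0.11 for adipocyte, 0.57 and 0.01 for endothelial, 0.51 and 0.65 for fibroblast and 0.80 and −0.04 for fibre genes. Of the peaks of these 6 lists, 2 of 730 passed the thresholds in set 1 (0.274%, against 0.469% of all peaks), both in the fast myosin Myh1, and 0 of 1586 passed in set 2. The part of blood or macrophages in the values of Mt1 and Mt2 was not tested.

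**Figure D4:**
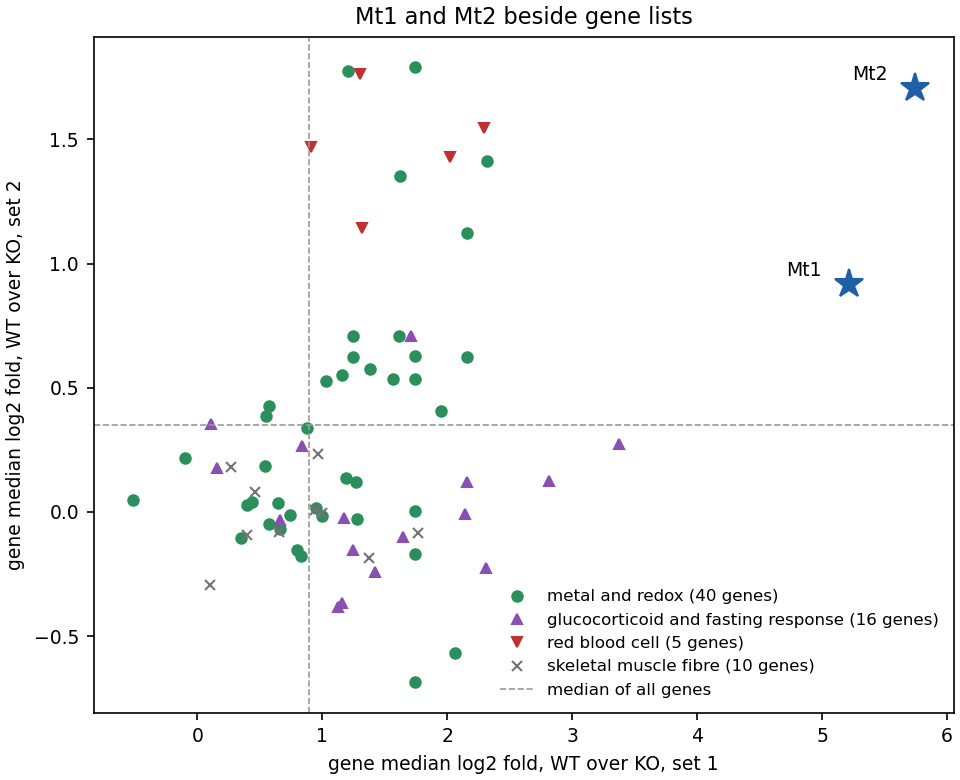
Gene median log2 folds, WT over KO, in set 1 (x axis) and set 2 (y axis) for Mt1 and Mt2 (stars) and the genes of 4 lists with WT peaks in both sets, with dashed lines at the median of all genes. Mt2 lies at 5.74 and 1.71 and Mt1 at 5.21 and 0.92, to the right of all listed genes, whose highest value in set 1 is 3.37.

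The genes most like Mt1 and Mt2 were sought over 4 gene medians, WT over KO and WT over input in each set, among 8161 genes with at least 3 listed WT peaks in both sets. Each was the nearest gene to the other, at a Euclidean distance of 1.38 on the log2 scale. That measure includes the set 1 folds on which both genes were chosen, so their nearness follows in part from the choice and supports nothing. The next for Mt1 were Glis3, a zinc finger factor, at 1.88, the mitochondrial carrier Slc25a25 at 1.91, Arrdc2 at 1.95 and the glycogen-targeting phosphatase subunit Ppp1r3c at 2.09. For Mt2 they were Glis3 at 2.23, Arrdc2 at 2.85, Slc25a25 at 2.93 and the potassium channel subunit Kcnf1 at 2.96. WT over KO in set 2, Arrdc2 had −0.61, Ppp1r3c −0.58 and Slc25a25 0.07, whereas Glis3 had 1.71, as Mt2 did. In set 1, however, 0 of the 3 WT peaks of Glis3 passed the thresholds, and the number of reads behind its folds is unknown.

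The promoters were read because both genes moved together and because MTF1 acts through short, known elements. The core of a metal response element was searched as TGCACNC or TGCGCNC on both strands in RefSeq promoter windows (GRCm38.p6), which run from 250 bases before to 50 bases after a gene's start. The Mt2 window held 4 cores, a number that 0.517% of 32851 windows reached, and the Mt1 window held 3, which 1.97% reached. Those of Mt3 and Mt4 held 1 each, as 25.7% of windows held at least 1.

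More cores followed within the first exon as annotated, ahead of the first peak, for a total of 5 in Mt1 and 7 in Mt2 from the start of the window to that peak. The core nearest to the first peak of each gene that reads along the plus strand is shown with its neighbouring bases, 5′ to 3′ and with the core in capitals, with its position at chr8:94179187-94179193 for Mt1 and at chr8:94172729-94172735 for Mt2.
Mt1 core: aacccttTGCGCCCggactcg
Mt2 core: gagctttTGCGCTCgacccaa

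A match is a description of the letters and not a measured site. Between these cores and the first peak, each gene holds the word TATAAA inside its annotated first exon, at 22 nt before the first listed peak in Mt1 and 42 nt before it in Mt2. Of 58447 protein-coding transcripts of at least 250 nt, 3.12% hold that word in their first 250 nt. The first 150 nt of exon 1 in Mt1 and the first 131 nt in Mt2 carried no listed peak in any library.

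Seed matches were searched in both mRNAs because AGO2 finds its targets through them. The word GTACAGG, which pairs with the seed (bases 2 to 8) of miR-486-5p, was in neither the Mt1 nor the Mt2 mRNA, where 2.96% of 6987 protein-coding transcripts of 400 to 650 nt hold it. The search was repeated for 12 other microRNAs known from muscle, and 2 of their words were found, both in the last exon of Mt1 and none in Mt2. The 2 mature microRNAs are shown from RefSeq, with the seed, positions 2 to 8, in capitals.
miR-133b-3p: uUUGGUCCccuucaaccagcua
miR-30a-5p: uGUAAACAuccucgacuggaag

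The match to miR-133b-3p, GGACCAA, lies at chr8:94180232-94180238, and 4.68% of the transcripts of like length hold that word. The match to miR-30a-5p, TGTTTAC, lies at chr8:94180267-94180273, and 2.35% hold it. Both lay in the 3′ UTR, inside the last exon 3 peak of WT in set 1 and the exon 3 peaks of WT and KO in set 2, and outside the KO peaks of set 1. That no word for miR-486-5p was found says only that these letters are not in the annotated mRNAs. Only the full word was searched, and shorter or other forms of the site were not. The study names Mt2 a direct target of miR-486 and an example of those with a predicted seed site. Its target calls came from chimeric reads amplified with a miR-486 primer, in the enriched libraries that were not analysed here. The study also gives a consensus sequence for its top peaks. By its quantitative PCR, nearly all of its target transcripts were induced in mir-486 KO muscle.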

How the data were processed

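Total AGO2 and input libraries of WT and mir-486 KO tibialis anterior were compared in 2 sets. The submitters' processing notes name UMI-tools, cutadapt, STAR, SAMtools and FastQC. The authors called peaks per library, without pooling, and deposited for each peak the log2 fold between 2 libraries and the −log10 of its p-value, which reaches at most 400 and is 0 wherever the fold is below 0. These columns are the authors' own comparisons and the only values in the lists; they were used to describe peaks.

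Peaks were assigned to GENCODE M21 genes by an overlap of 1 nt on the same strand, and a gene's value was the median over its peaks. The labels name GENCODE M24 of the same assembly. Coordinates are 1-based. Relative depth came from the most frequent direct folds. Scripts ran in Python with pandas 2.3.3 and numpy 2.4.6, and were tested on simulated peaks. Genes named were Mt1 to Mt4, list genes past the thresholds or with the 2 highest or 2 lowest medians of the metal and redox list, and the 5 nearest genes. The neighbours of Mt1 and Mt2 by rank and Mtf1 were named after their values were seen. Members and lists were chosen with earlier results of these data known. No test was made. Alternatives were other overlaps, means, thresholds and each set alone.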

Additional observations from a re-analysis of the deposited data

How the results depend on the processing

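Leaving aside the sets alone, 33 of 37 alternatives over 8 results left the value within the spread between the sets, which was wide, or the count within 1.5 times, 4 moved it and 0 reversed a direction. With 2 sets, either set alone lies within 1 SD of the mean by construction, so those values say nothing about stability. Counting peaks with at least 50% of their length in the gene, or only those on exons, changed nothing, since all lie on exons. Peaks past the thresholds in WT over KO were 11 in set 1 alone and 0 in set 2 alone. WT peaks enriched over input numbered 4, and became 15 with the log2 threshold at 1, 0 with it at 4 and 2 with the −log10 p threshold at 5, and either set alone gave 2. KO peaks enriched over input rose from 0 to 1 with the log2 threshold at 1. The median log2 fold of WT over KO ranged from 0.92 to 5.21 for Mt1 and from 1.71 to 5.74 for Mt2 across the sets alone, so set 1 decides the size. No paired analysis was possible because the results come from no test, and the direct folds already set WT against KO within each set. Absolute depth is unknown, and the KO values of Mt2 in set 1 rest on 1 peak.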
